A study of Mus musculus with 10 samples.

Results

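The airway secretory genes described here are 10 genes whose products coat the conducting airways: the secretoglobins Scgb1a1, Scgb3a1 and Scgb3a2, the gel-forming mucins Muc5b and Muc5ac, the BPIF proteins Bpifa1 and Bpifb1, the lectin Reg3g, the trefoil peptide Tff2 and the immunoglobulin carrier Pigr. They were measured by 12 of the 45101 probe sets of the Affymetrix Mouse430_2 array, and are 10 of the 18194 genes that the platform annotation names through 34958 probe sets with 1 gene symbol each. All probe sets with 1 of these symbols were taken, whatever their values. The genes themselves were selected on the log2 values of these same 10 arrays, which were known when the list was proposed, so their differences between the groups are given as a description, without a test.

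RNA came from whole lungs of 10 female C57BL/6 mice, an inbred laboratory strain, aged 8 weeks at the start. 5 mice drank water with 50 ppm arsenic for 12 weeks and 5 controls drank deionized water without it, and each animal gave 1 array. The labels name the compound as arsenate for the series and as arsenite in each sample's treatment field, so the text says arsenic. In the titles, the number printed just before the animal's own is 20 for every arsenic sample and 4 for every control; its meaning is not given, and whatever it marks and the exposure cannot be told apart. The treatment field of control animal 4 gives no dose, and its title gives 0 ppm. No transgene, deletion or pooled animal is named in the labels.

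Values are log2 expression, so a difference of 1 is a doubling, and a probe set is compared only with itself across animals. The table's median was 4.20, and a value under it is called dim. A probe set was tested if it was over that median on at least 5 of the 10 arrays, which 22495 were; 11 of the 12 probe sets of the airway genes, standing for 9 genes, passed, and that of Muc5ac did not.

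The airway surface is kept clear by a film of fluid and mucus that ciliated cells carry towards the throat. Club cells secrete secretoglobins, small proteins that make up much of the fluid's protein, and in mice most gel-forming mucin at rest comes from the same secretory cells and from submucosal glands. BPIF proteins, lectins and transported IgA add defence against microbes. The mouse expresses several of these products in a graded way, with Scgb3a1, Bpifa1 and Bpifb1 typical of the trachea and large airways and Scgb1a1 and Scgb3a2 of intrapulmonary airways.

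RefSeq promoters on build GRCm38.p6 were used for 5 of the 10 genes, Scgb3a1, Bpifa1, Bpifb1 (2 start sites), Reg3g and Pigr. The 250 bases before the start are printed, 5′ to 3′ on the gene's strand, for the 4 of them whose values differed most between animals. Capitals mark matches to 6 short motifs searched on both strands: the TATA box TATAAA, the FOXA motif TNTTTAC, the STAT motif TTCNNNGAA, the C/EBP motif TTGCNNAA, the NKX2-1 motif CTCAAG and the NF-kB motif of GGG, 5 bases of any kind and CC. In this count no match of one motif overlapped a match of another. A match is a run of letters and not evidence that a factor binds there.
Bpifa1 (chr2:154142630-154142879, plus strand): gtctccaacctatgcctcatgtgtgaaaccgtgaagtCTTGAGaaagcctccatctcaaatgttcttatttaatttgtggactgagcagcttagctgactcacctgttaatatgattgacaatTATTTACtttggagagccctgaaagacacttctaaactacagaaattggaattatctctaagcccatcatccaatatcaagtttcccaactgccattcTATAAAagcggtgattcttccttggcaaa
Bpifb1 upstream start (chr2:154190568-154190817, plus strand): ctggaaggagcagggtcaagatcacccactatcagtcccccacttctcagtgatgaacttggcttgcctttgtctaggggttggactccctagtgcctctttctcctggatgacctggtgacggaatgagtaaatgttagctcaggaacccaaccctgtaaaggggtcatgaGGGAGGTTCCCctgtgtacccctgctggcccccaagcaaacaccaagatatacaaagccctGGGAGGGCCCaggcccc
Bpifb1 downstream start (chr2:154200130-154200379, plus strand): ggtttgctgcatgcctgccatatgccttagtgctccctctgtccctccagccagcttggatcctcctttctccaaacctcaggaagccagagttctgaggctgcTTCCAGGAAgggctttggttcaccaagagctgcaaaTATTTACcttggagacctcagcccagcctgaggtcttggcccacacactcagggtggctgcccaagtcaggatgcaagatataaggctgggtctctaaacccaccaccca
Reg3g (chr6:78468875-78469124, minus strand): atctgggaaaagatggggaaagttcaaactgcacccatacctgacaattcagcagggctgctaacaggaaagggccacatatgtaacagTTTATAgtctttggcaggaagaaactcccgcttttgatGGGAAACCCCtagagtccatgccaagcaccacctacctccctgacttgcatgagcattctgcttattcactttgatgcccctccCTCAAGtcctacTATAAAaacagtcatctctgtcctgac
Scgb3a1 (chr11:49663345-49663594, plus strand): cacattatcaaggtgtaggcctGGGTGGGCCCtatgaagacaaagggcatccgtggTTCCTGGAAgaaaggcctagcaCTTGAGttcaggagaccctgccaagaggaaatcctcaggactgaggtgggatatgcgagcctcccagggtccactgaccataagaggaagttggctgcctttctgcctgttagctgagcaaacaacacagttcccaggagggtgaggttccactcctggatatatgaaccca

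Over 32851 promoters of the same length, the shares that held each motif were 12.4% for the TATA box, 10.9% for FOXA, 7.02% for STAT, 9.56% for C/EBP, 13.3% for NKX2-1 and 45.8% for NF-kB. Of the 6 windows of the airway genes, that of Pigr included, 2 held the TATA box, 2 FOXA, 2 STAT, 0 C/EBP, 3 NKX2-1 and 4 NF-kB. The TATA box lay 29 to 24 bases before the start of Bpifa1 and 27 to 22 bases before that of Reg3g. The same 7 letters, TATTTAC, matched the FOXA motif 127 to 121 bases before the start of Bpifa1 and 110 to 104 bases before the downstream start of Bpifb1. These 2 genes are neighbours on chromosome 2. A STAT match stood 194 to 186 bases before the start of Scgb3a1, as TTCCTGGAA, and 146 to 138 bases before the downstream start of Bpifb1, as TTCCAGGAA. No motif was common to all 6 windows.

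Control animal 2 and arsenic animal 5 stood apart from the other 8 animals in most of these genes before any comparison between groups. Both were the lowest of their group in 10 of the 11 tested probe sets, all but that of Scgb1a1. Of all 22495 probe sets tested, 6.4% had the same animals lowest in both groups. The 2 animals were noticed in these values, so this count describes them and is not a test. The differences between the groups are given below with and without them. Over the whole table the 10 arrays had medians of 4.11 to 4.26 and correlated with each other at 0.990 to 0.997.

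**Figure D1:**
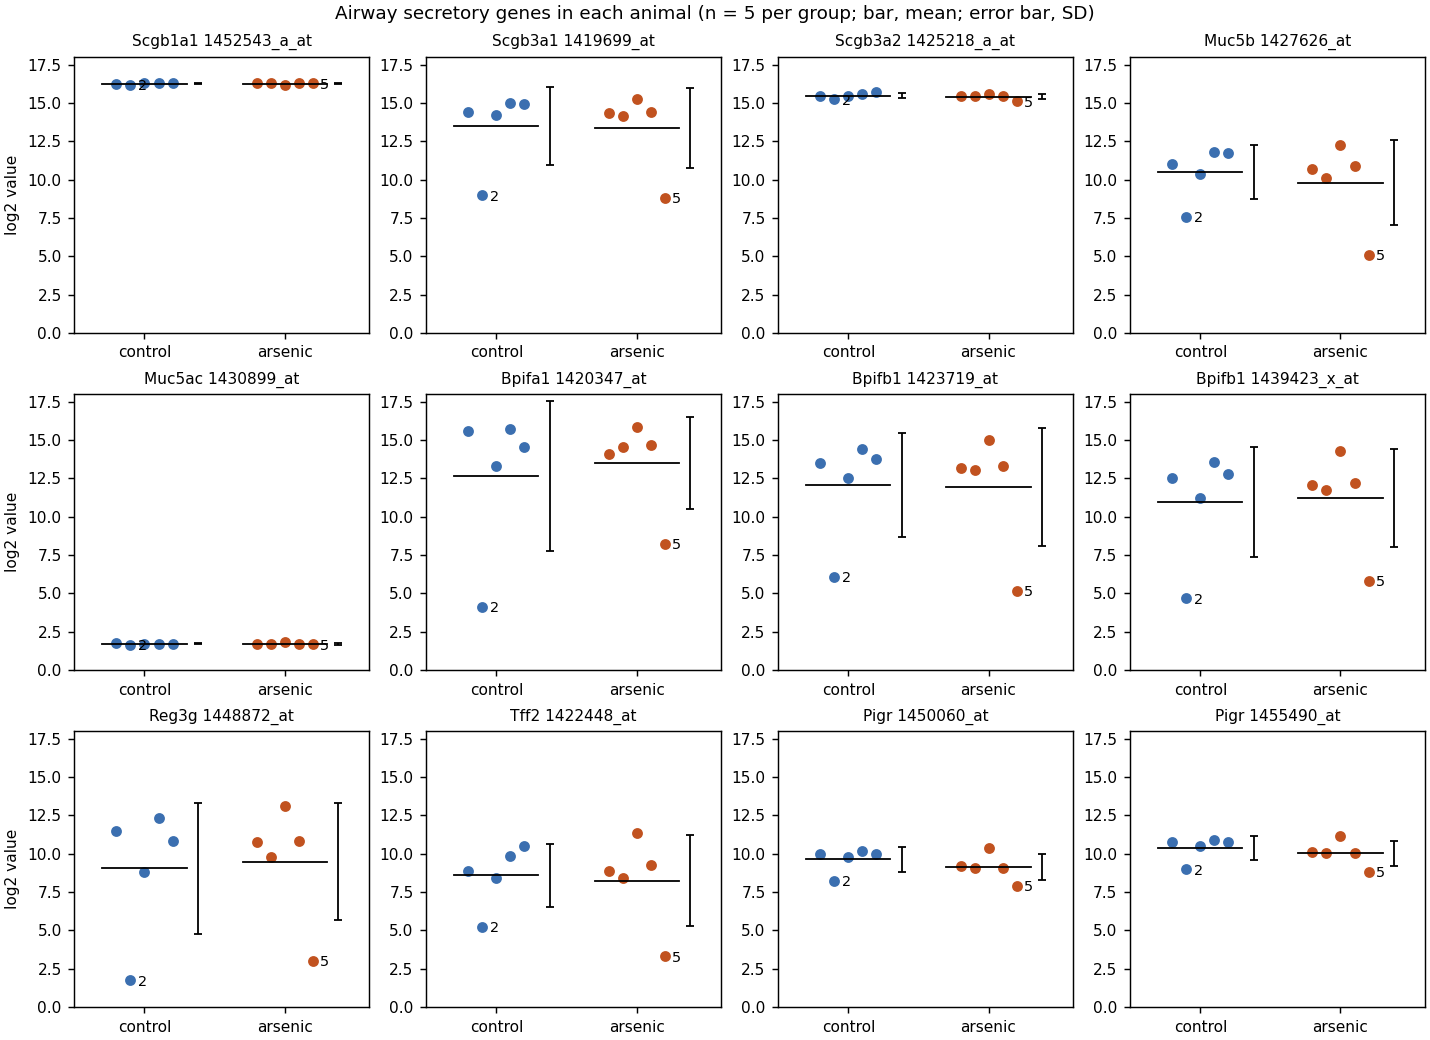
Log2 value (vertical axis, 0 to 18) of each probe set in each of the 10 animals, control in blue and arsenic in orange, with group mean and SD (n = 5 each). Control animal 2 and arsenic animal 5, marked 2 and 5, lie far below the others in Scgb3a1, Bpifa1, Bpifb1 and Reg3g, whereas Scgb1a1, Scgb3a2 and Muc5ac are nearly flat.

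Among the secretoglobins, Scgb3a1 split the animals and the other 2 did not. Scgb3a1, a secretoglobin of the large airways read by 1419699_at, was at 14.42, 8.98, 14.21, 15.03 and 14.93 in control animals 1 to 5 and at 14.35, 14.16, 15.24, 14.40 and 8.80 in arsenic animals 1 to 5. Control animal 2 lay 5.23 below the next lowest control, 37.5-fold, and arsenic animal 5 lay 5.36 below the next lowest arsenic animal, 41.1-fold. The remaining 8 animals spanned 1.08, or 2.12-fold, and the groups overlapped. The group means were 13.51 ± 2.56 and 13.39 ± 2.60 (mean ± SD, n = 5 each), a difference of -0.12 (limma standard error 1.42).

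Scgb1a1 encodes the main secretory protein of club cells. Its probe set 1452543_a_at read 16.25, 16.21, 16.31, 16.28 and 16.32 in the controls and 16.30, 16.28, 16.17, 16.28 and 16.28 with arsenic. All 10 animals thus lay within 0.15, near the top of the scale, which ends at 16.3, and a difference may not show there. Scgb3a2, a club-cell secretoglobin with a role in lung development, read 15.48, 15.26, 15.44, 15.58 and 15.69 in the controls and 15.47, 15.47, 15.57, 15.46 and 15.12 with arsenic (1425218_a_at). Control animal 2 and arsenic animal 5 were again the lowest, but by 0.18 and 0.33, and this probe set is also close to the top of the scale. Its groups overlapped, with a difference of -0.07 (standard error 0.11).

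Muc5b, the mucin on which clearance of the mouse airway depends, followed Scgb3a1. Its values were 11.03, 7.57, 10.34, 11.80 and 11.73 in the controls and 10.69, 10.11, 12.28, 10.89 and 5.08 with arsenic (1427626_at). Arsenic animal 5 lay 5.02 (32.5-fold) below the next lowest of its group and control animal 2 lay 2.77 (6.81-fold) below, and arsenic animal 3 was the highest of all. The means were 10.49 ± 1.74 and 9.81 ± 2.76, with overlapping groups and a difference of -0.69 (standard error 1.26). Muc5ac, the mucin that goblet cells make in allergic or irritated airways, was dim in every animal, from 1.65 to 1.75 in the controls and from 1.66 to 1.82 with arsenic (1430899_at). A single dim probe set gives no level, so whether the groups differed in Muc5ac was not measurable here.

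Bpifa1, an abundant surface protein of the upper airway that lowers surface tension and restrains bacteria, was also lowest in control animal 2 and arsenic animal 5. It read 15.57, 4.10, 13.32, 15.76 and 14.53 in the controls and 14.12, 14.54, 15.85, 14.70 and 8.22 with arsenic (1420347_at). In control animal 2 it was dim, and in arsenic animal 5 it was 5.90, or 59.6-fold, below the next arsenic animal. The other 8 animals spanned 2.53. The means were 12.65 ± 4.88 and 13.49 ± 3.01, a difference of 0.83 with a standard error of 2.22.

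Bpifb1, a larger relative of Bpifa1 found in mucus, was read by 2 probe sets. The first, 1423719_at, was at 13.50, 6.09, 12.53, 14.40 and 13.76 in the controls and at 13.18, 13.04, 15.01, 13.30 and 5.16 with arsenic. The second, 1439423_x_at, was at 12.54, 4.67, 11.22, 13.55 and 12.80 and at 12.04, 11.77, 14.28, 12.18 and 5.81. Both placed control animal 2 and arsenic animal 5 at the bottom and arsenic animal 3 at the top. They disagreed on which of the bottom 2 was lower, and on the sign of the difference between groups, -0.12 (standard error 2.00) and 0.26 (standard error 1.87). Over the other 8 animals the deviations of the 2 probe sets from their group means correlated at r = 0.999 (rho = 1.00, exact permutation within groups, p = 0.00174 for each, the smallest that 576 permutations can give). Without the 2 animals farthest from the median r was 0.997. Both probe sets read 1 gene on the same arrays, and the gene was selected on these values, so their likeness is a description and not a test.

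Reg3g encodes a lectin that binds and kills Gram-positive bacteria and is induced in inflamed epithelium. It read 11.47, 1.75, 8.78, 12.37 and 10.83 in the controls and 10.77, 9.79, 13.09, 10.81 and 3.00 with arsenic (1448872_at). It was dim in control animal 2 and arsenic animal 5 and differed most among the remaining 8, by 4.31 or 19.8-fold, from control animal 3 up to arsenic animal 3. The means were 9.04 ± 4.28 and 9.49 ± 3.83, a difference of 0.45 (standard error 2.23).

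Tff2, a trefoil peptide that binds mucins and aids epithelial repair, was at 8.84, 5.24, 8.44, 9.88 and 10.51 in the controls and at 8.85, 8.42, 11.36, 9.27 and 3.32 with arsenic (1422448_at). It was dim in arsenic animal 5, and control animal 2 was 3.20 or 9.18-fold below its own next lowest. The means were 8.58 ± 2.04 and 8.24 ± 2.98, a difference of -0.34 with a standard error of 1.40.

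Pigr, the receptor that carries IgA through epithelial cells into the airway lumen, was lowest in the same animals, over a narrower range. Probe set 1450060_at read 9.98, 8.23, 9.78, 10.19 and 10 in the controls and 9.19, 9.09, 10.35, 9.05 and 7.92 with arsenic. Probe set 1455490_at read 10.76, 8.98, 10.49, 10.88 and 10.79 and 10.09, 10.05, 11.15, 10.04 and 8.82. In both, arsenic animals 1, 2 and 4 lay below control animals 1, 3, 4 and 5, while arsenic animal 3 lay above every control. The differences were -0.52 (standard error 0.46) and -0.35 (standard error 0.45), and over the 8 animals without control 2 and arsenic 5 they were -0.57 (standard error 0.28) and -0.40 (standard error 0.25).

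Across the whole table, 99 of 22495 probe sets, 0.44%, passed an adjusted p of 0.05 between arsenic and control (limma, Benjamini-Hochberg), and 3.86% had groups that did not overlap. Of the 11 tested probe sets of the airway genes 0 passed, 0 had an unadjusted p under 0.05 and 0 had groups that did not overlap. Because the genes were proposed with this contrast known, nothing is read from these counts. The difference was positive in 3 and negative in 8 of the 11, with a median of -0.12, beside a median of 0.03 over all probe sets. Without control animal 2 the median was -1.26 with 0 positive, without arsenic animal 5 it was 0.89 with 8 positive, and without both it was -0.03 with 5 positive. The standard errors of 1.26 to 2.23 for Scgb3a1, Muc5b, Bpifa1, Bpifb1, Reg3g and Tff2 leave a several-fold change with arsenic within the spread between animals.

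The sign of these differences turned on which of the 2 animals was in the fit. Without control animal 2, Scgb3a1 differed by -1.26 (standard error 1.14), and without arsenic animal 5 by 1.03 (standard error 1.12). Bpifa1 went from -1.31 to 2.15 in the same way, Bpifb1 (1423719_at) from -1.61 to 1.58, Reg3g from -1.37 to 2.07, Muc5b from -1.42 to 0.50 and Tff2 from -1.18 to 0.89. With both left out the differences shrank to -0.11 for Scgb3a1 (standard error 0.27), 0.01 for Bpifa1 (0.57), 0.09 for Bpifb1 (0.51), 0.25 for Reg3g (0.87), -0.23 for Muc5b (0.48) and 0.06 for Tff2 (0.68). Pigr (1450060_at) stayed negative in all 4 fits, between -0.87 without control animal 2 and -0.21 without arsenic animal 5. The other Pigr probe set, 1455490_at, ran from -0.70 without control animal 2 to -0.05 (standard error 0.41) without arsenic animal 5.

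**Figure D2:**
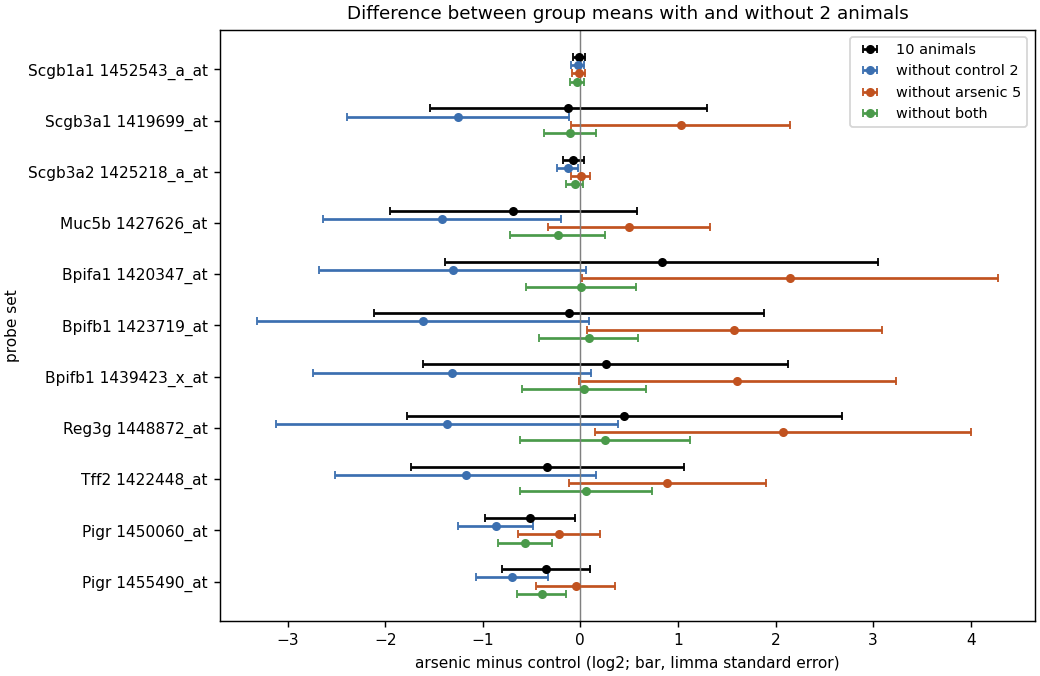
Arsenic minus control on the log2 scale (horizontal axis) with its limma standard error for each probe set, over all 10 animals, without control animal 2, without arsenic animal 5 and without both. For Scgb3a1, Bpifa1, Bpifb1, Reg3g, Muc5b and Tff2 the 2 single omissions fall on opposite sides of 0, and the value without both lies near it.

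Most of these genes spread widely between animals of 1 group; since they were selected on these values, their ranks are a description. The within-group SD had a median of 0.20 over all tested probe sets and a 99th percentile of 0.79. Of the 25 probe sets with the largest SD, 7 belonged to the airway genes: Reg3g ranked 2nd, Bpifa1 3rd, the Bpifb1 pair 4th and 6th, Scgb3a1 12th, Tff2 13th and Muc5b 18th, with SDs from 2.31 to 4.06. The others of the 25 included genes of fat, kidney, heart and secretions: Car3, Adipoq, Kap, Nppa, Gp2, Clca1, Ltf and Agr2, and rank 1 was a probe set without a single gene symbol. Both Pigr probe sets also exceeded the 99th percentile, at 0.83 and 0.81, so 9 of the 11 did. Scgb3a2 (0.17) and Scgb1a1 (0.05) lay under the median. Without control animal 2 and arsenic animal 5, Reg3g, Tff2, the 2 Bpifb1 probe sets, Bpifa1 and Muc5b, with SDs from 0.81 to 1.46, still exceeded the 99th percentile of those 8 animals, 0.77. Scgb3a1 dropped from rank 12 to rank 2145, with an SD of 0.44. The spread of Scgb3a1 thus lay mostly in 2 animals, and that of Reg3g and Tff2 also in the rest. In those 8 animals Scgb3a1 read 14.16 to 15.24, nearer the top of the scale than Reg3g (8.78 to 13.09) and Tff2 (8.42 to 11.36). Part of its spread may therefore not show.

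**Figure D3:**
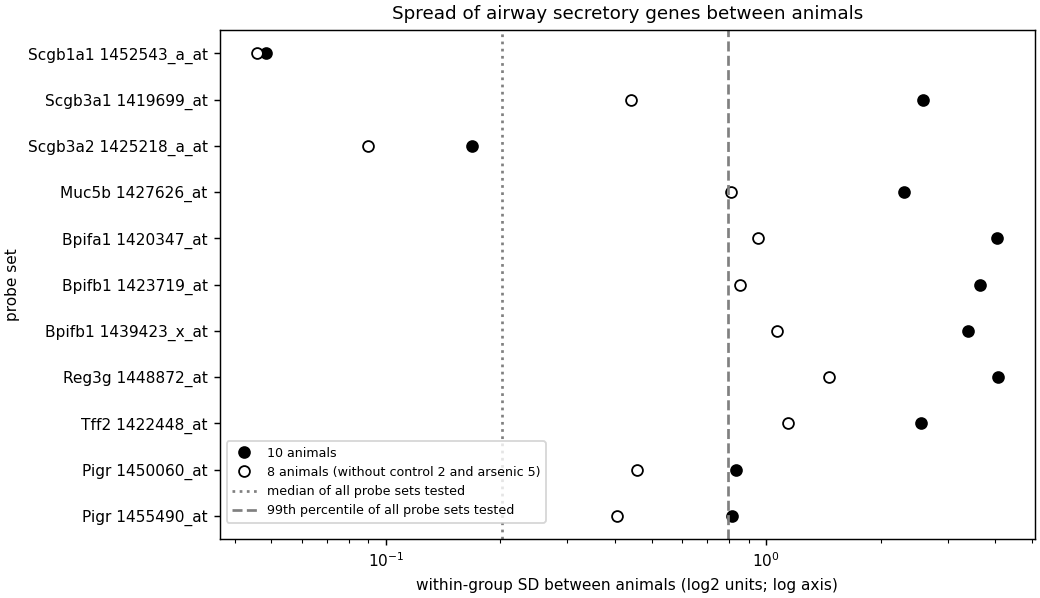
Within-group SD between animals (log2 units, log axis) of each tested probe set over 10 animals (filled) and over the 8 without control animal 2 and arsenic animal 5 (open), with the median (dotted) and 99th percentile (dashed) of all probe sets over 10 animals. Most filled points lie right of the dashed line and Scgb1a1 and Scgb3a2 lie left of the dotted one; for Scgb3a1 the open point falls well short of the dashed line.

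By Dixon's criterion for 5 values, control animal 2 and arsenic animal 5 were both set apart below their groups in 5 of the 22495 probe sets tested, 0.0222%. Those 5 were Bpifb1 (1423719_at), Bpifa1, Scgb3a1, the ribosome-biogenesis gene Sdad1 and 1 probe set without a single gene symbol. Control animal 2 was set apart in this way in 101 of the 22495 probe sets and arsenic animal 5 in 123. The same count was not made for the other animals or set against the criterion's chance rate. Whether 101 and 123 are more than any animal would show was therefore not tested. The genes and the criterion's use on this pair of animals were chosen with the values known, so the count of 3 airway probe sets among 5 is a description.

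The other 8 animals also differed from each other in a shared order. For each gene the brighter probe set's deviations from the group mean were correlated over the 8 animals for all 36 pairs of 9 genes, by exact permutation within groups, two-sided, with Benjamini-Hochberg adjustment over the 36; leaving out the pair of animals was chosen after seeing the data. The genes were selected on the values correlated here, so the p-values describe these animals and are no independent support. An adjusted p under 0.05 was reached by 17 of 36 pairs, all with positive r, and by 9 with Spearman's rho. A further 3 pairs had an adjusted p of exactly 0.05, among them Scgb1a1 with Bpifa1, whose r was -0.768. Among Scgb3a1, Muc5b, Bpifa1, Bpifb1, Reg3g and Tff2 the 15 pairs had r from 0.593 to 0.984 with a median of 0.902, and 10 passed. Pigr moved with them too, at r = 0.882 with Scgb3a1, 0.881 with Muc5b and 0.911 with Bpifb1. Its r was 0.821 with Reg3g, 0.871 with Tff2 and 0.711 with Bpifa1.

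Scgb3a1 and Muc5b were the closest pair, with r = 0.984 (exact permutation p = 0.00174, adjusted 0.0208) and rho = 0.952 (p = 0.00347, adjusted 0.0250). Their r was 0.964 without the 2 animals farthest from the median of Scgb3a1. Bpifb1 and Reg3g had r = 0.951 (exact permutation p = 0.00868, adjusted 0.0284), rho = 0.976 (p = 0.00868, adjusted 0.0391) and r = 0.884 without the 2 farthest animals. Bpifa1 kept closest to Reg3g, at r = 0.922 (exact permutation p = 0.00868, adjusted 0.0284), rho = 0.881 (p = 0.0104, adjusted 0.0417) and r = 0.815 without the 2 farthest. The loosest of the 15 pairs was Bpifa1 with Tff2, at r = 0.593 (exact permutation p = 0.128, adjusted 0.154), rho = 0.619 (p = 0.142, adjusted 0.190) and r = 0.194 without the 2 farthest, so it rested on those animals. Scgb1a1 went the other way over these 8 animals, with a negative r against all 8 other genes, from -0.164 with Scgb3a2 to -0.867 with Pigr. Of these, 0 had an adjusted p under 0.05, and the range of Scgb1a1, 0.15, lies at the top of the scale. The pattern was not stable: rho with Scgb3a2 was 0.132, and over all 10 animals r ran from -0.026 with Pigr to 0.249 with Bpifa1. Arsenic animal 3 was the highest of the arsenic animals in 10 of the 11 probe sets and of all 10 animals in 9, which makes it the far end of most of these relations. How often it was the highest over all tested probe sets was not counted.

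**Figure D4:**
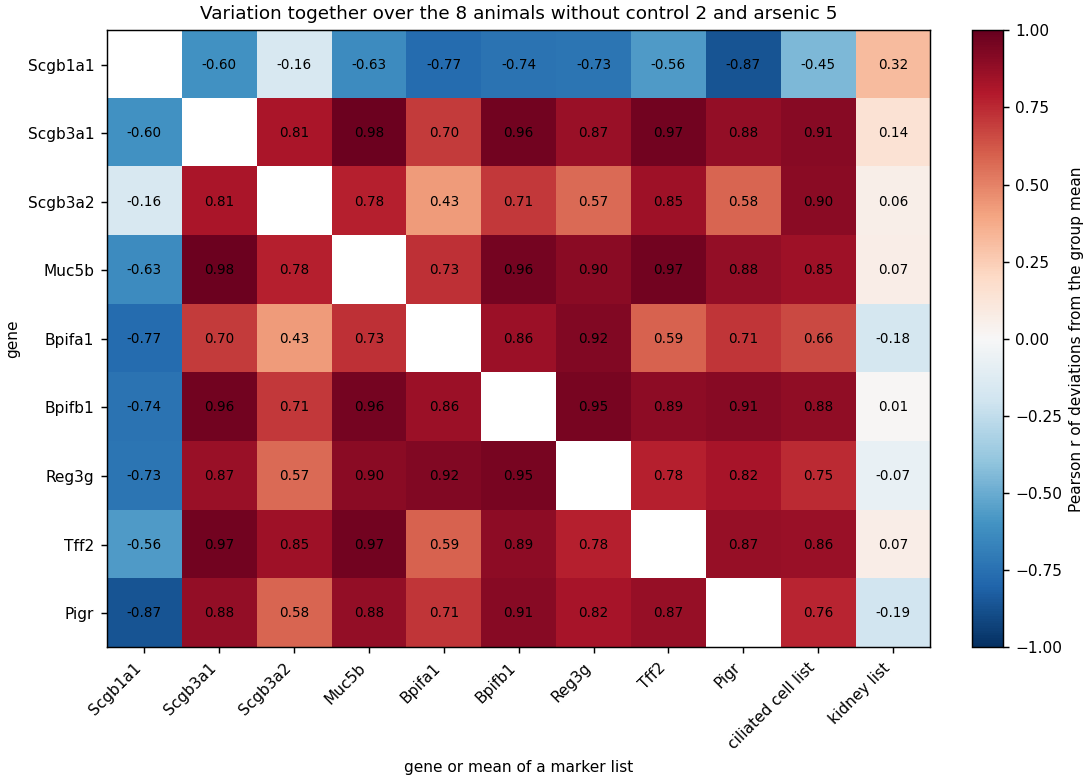
Pearson r (colour, and the number in each square) of deviations from the group mean over the 8 animals without control animal 2 and arsenic animal 5, between the 9 tested genes and against the mean level of the ciliated and kidney marker lists. Scgb3a1, Muc5b, Bpifb1, Reg3g, Tff2 and Pigr form a block of high positive r. Scgb1a1 is negative against every other gene, and the kidney column lies between -0.189 and 0.318.

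Other cell types moved with the airway genes. Of 25 tested ciliated-cell markers, 21 had control animal 2 and arsenic animal 5 as the lowest of their groups; the list's mean level was 7.90 in control animal 2, 7.42 in arsenic animal 5 and 8.21 to 9.001 in the other 8. Foxj1, the master regulator of motile cilia, was at 8.67 and 8.13 in these animals and from 9.07 to 10.10 in the others. Of 11 other club-cell genes, 9 also had both animals lowest, with a mean level of 12.96 and 12.84 against 13.14 to 13.46; several of these probe sets, like that of Scgb1a1, read close to the upper end of the scale, which can hide differences. Within that list Lypd2, a surface protein of secretory cells, was at 9.94 and 8.98 against 10.58 to 12.30, whereas the cytochrome P450 Cyp2f2 was at 15.50 and 15.48 against 15.57 to 15.74. The mean level of 11 goblet and mucin genes was 6.60 and 6.57 against 6.97 to 8.33, with 4 of them lowest in both animals.

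Some markers of neighbouring tissues were low in the same animals and others were not. The 7 tested smooth muscle genes, 5 of them lowest in both animals, had a mean level of 8.76 and 8.67 in control animal 2 and arsenic animal 5 and of 8.87 to 9.58 in the other 8. Lists of 10 heart muscle and 7 adipocyte genes, added after the values were seen, gave 7.49 and 7.06 against 8.16 to 9.76, and 6.41 and 6.52 against 7.84 to 10.7; 9 of the 10 heart muscle genes and 4 of the 7 adipocyte genes were lowest in both animals. In these 2 animals the fat hormone Adipoq was dim, at 1.93 and 1.97, and the atrial peptide Nppa was dim at 3.82 and 3.96. Adipocyte genes that did not follow were Lipe, at 8.91 and 8.98 against 7.55 to 9.36, Pnpla2, at 10.28 and 10.62 against 10.02 to 10.84, and Cidec, at 7.45 and 7.93 against 7.15 to 9.01. The defining basal-cell genes Krt5, Krt14 and Trp63 and the cartilage genes Col2a1 and Acan did not pass the filter, which leaves 2 genes in each of those lists. The level of the 2 cartilage genes was 9.50 and 9.40, within the 9.12 to 9.67 of the other animals. Alveolar type 2 genes, from the gas-exchange surface, were not lower: their mean level was 13.99 in control animal 2, 14.07 in arsenic animal 5 and 13.80 to 14.03 in the others. Several of these probe sets, such as that of Sftpc at 15.95 to 16.18, also read close to the upper end of the scale, which can hide differences. The part of any of these tissues in the values of the airway genes was not tested, and in whole lung fewer cells of a type and less RNA per cell cannot be told apart.

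**Figure D5:**
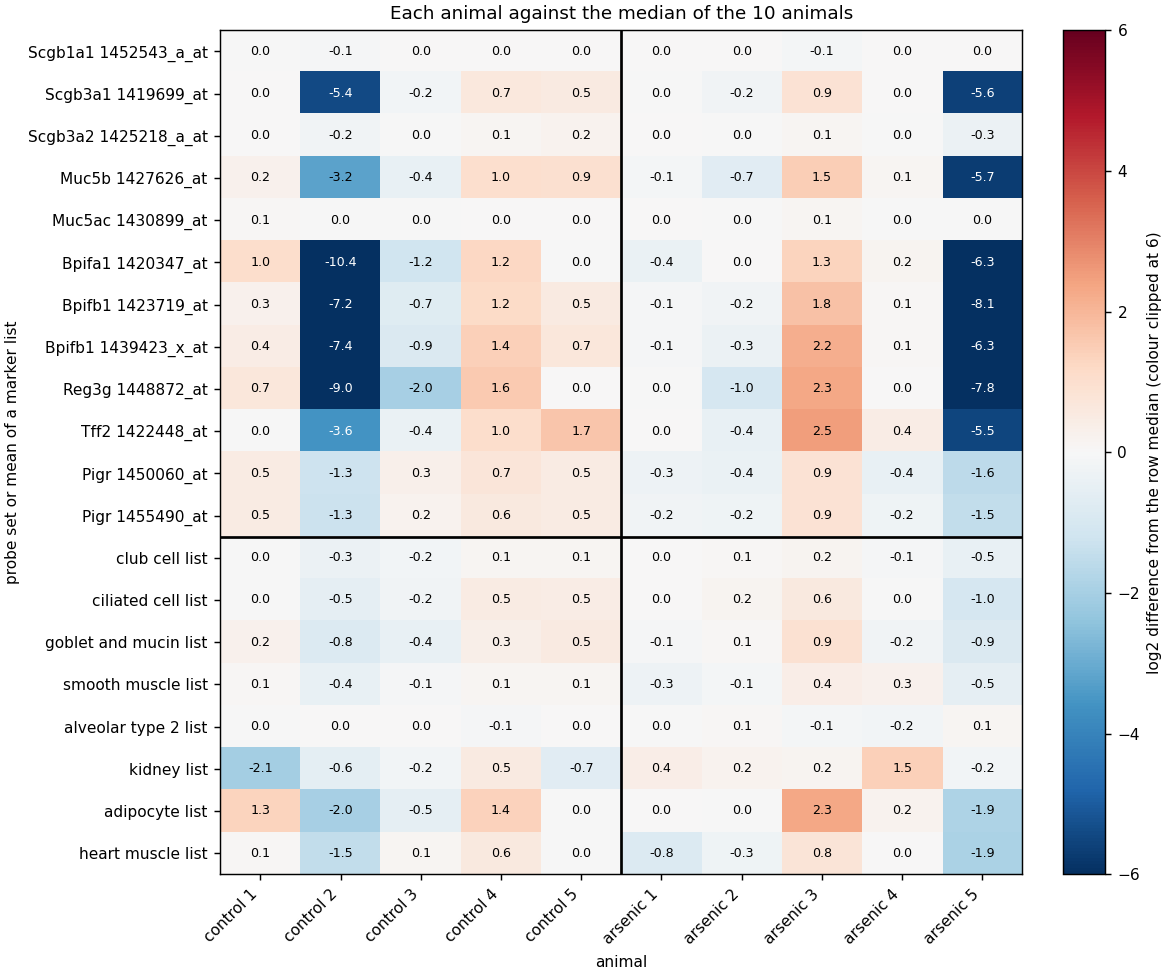
Log2 difference of each animal (columns) from the median of the 10 animals, for the 12 probe sets (top) and for the mean of 8 marker lists (bottom), with the number in each square and colour clipped at 6. The columns of control animal 2 and arsenic animal 5 are the lowest in Scgb3a1, Muc5b, Bpifa1, Bpifb1, Reg3g, Tff2 and Pigr and in the ciliated, adipocyte and heart muscle lists, and are close to 0 in the alveolar type 2 list.

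Over the 8 other animals, the r of the airway genes with the ciliated level was 0.657 to 0.911 for every tested gene but Scgb1a1 (-0.449). With 27 comparisons against the ciliated, cartilage and kidney levels, 0 of them passed (exact permutation within groups), and the ciliated ones had adjusted p-values of at least 0.141. The closest was Scgb3a1, with r = 0.911 (exact permutation p = 0.0260, adjusted 0.141), rho = 0.786 (p = 0.0503, adjusted 0.340) and r = 0.804 without the 2 farthest animals. The mean level of 10 kidney transcripts was 5.68 to 8.28 in the control lungs and 7.56 to 9.19 with arsenic, and gave r from -0.189 to 0.318 with the airway genes.

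By the same likeness over all 10 arrays, the 3 nearest of 11323 other genes were listed for each airway gene, and their r over the 8 animals is printed. The 10 arrays include these 8 animals, so the printed r is raised by the choice of the nearest genes and is a description. The gene AU040972 was among the 3 for Scgb3a1 (r = 0.989), Muc5b (0.986), Bpifb1 (0.987), Reg3g (0.916) and Tff2 (0.950). Gp2, a glycoprotein of secretory granules, was listed for Scgb3a1 (0.903) and Bpifb1 (0.791), and the transcription factor gene Myb for Bpifb1 (0.881), Reg3g (0.803) and Tff2 (0.909). Cfap65, a protein of motile cilia, was listed for Muc5b (0.871) and Tff2 (0.953), and the cilia-linked adenylate kinase Ak7 for Muc5b (0.885). Car3, a carbonic anhydrase abundant in fat and muscle, was listed for Bpifa1 (0.897) and Reg3g (0.893). The heart muscle genes Tnnc1 (0.936) and Myl4 (0.944) were listed for Pigr, and Tbx1 (0.930), Traf3ip1 (0.918) and Fgg (0.915) for Scgb3a2. Scgb1a1 was nearest to Lyz1 (0.884), the surfactant gene Sftpc (0.848) and Rsrp1 (0.934). Lyz1, at 16.12 to 16.31, and Sftpc, at 15.95 to 16.18, read like Scgb1a1 near the top of the scale, where differences may not show. The remaining 2 names, 4930562C15Rik with Scgb3a1, Bpifa1 and Pigr and Spice1 with Bpifa1, had r of 0.577 to 0.892 over the 8 animals.

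Other genes of the airway programme were read from lists of club-cell, goblet and mucin, antimicrobial, IgA, regulator and cytokine-response genes and of neighbouring tissues. With arsenic 0 of their 125 tested genes passed (limma, Benjamini-Hochberg over 22495 probe sets), 12 had an unadjusted p under 0.05, or 9.6%, beside 17.2% of all probe sets, and the lowest adjusted p was 0.0824. The lowest was that of Hes1, a Notch target that favours the secretory over the ciliated fate, with a log2 difference of 0.73 (SE 0.16). The factor gene Cebpa had 0.37 (SE 0.09, adjusted p = 0.130) and the growth factor gene Tgfa 0.37 (SE 0.10, adjusted p = 0.141). Over 25 ciliated-cell genes the median difference was -0.06 with 8 positive; it was -0.22 with 3 positive without control animal 2, 0.19 with 21 positive without arsenic animal 5 and 0.04 with 15 positive without both. Over 11 club-cell genes it was -0.04 with 3 positive, and 0.02 with 8 positive without arsenic animal 5. Over all probe sets the median was 0.03, with 55.3% positive. The 14 regulator genes had a median of 0.09 with 10 positive, and 0.10 with 11 positive without both animals. None of 11 goblet and mucin genes passed (limma): their median was -0.04 over all 10 animals and 0.10 without arsenic animal 5. The membrane-bound mucin gene Muc4 had -0.44 (limma adjusted p = 0.525) over all 10 animals and -0.10 without arsenic animal 5, and Muc1 had -0.16 (adjusted p = 0.512) and -0.09. Over the 8 tested IgA and plasma-cell genes the median was -0.01 with 3 positive. The smallest p among them was that of Xbp1, which was higher with arsenic (0.25, SE 0.07, limma adjusted p = 0.162). Of the cargo of Pigr, the IgA heavy chain Igha had -0.85 (SE 0.37, limma adjusted p = 0.276) and the joining chain Jchain -0.88 (SE 0.61, adjusted p = 0.463). Without arsenic animal 2, the lowest in both, they had -0.54 and -0.34, and without control animal 5 Jchain had -0.54. Without arsenic animal 1, the highest arsenic animal in both, they had -1.12 and -1.24. The goblet-cell factor genes Spdef and Foxa3, the intestinal mucin Muc2 and the inducing cytokine genes Il13 and Il17a did not pass the filter.

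Among the genes of these lists that ran like Muc5b and Bpifb1, 2 chosen after their values were seen are given. Ltf, the iron-binding lactoferrin of secretions, was at 12.54, 7.25, 9.81, 12.97 and 10.99 in the controls and at 10.35, 10.86, 13.21, 10.52 and 6.49 with arsenic. Clca1, a secreted goblet-cell protein, was at 8.20, 2.62, 6.80, 7.88 and 11.27 and at 7.97, 8.27, 12.26, 9.72 and 2.68. Both were lowest in control animal 2 and arsenic animal 5 and highest in arsenic animal 3, as were Agr2 and Lypd2 of the same lists. Not all secreted defence genes did so: Slpi, a protease inhibitor, was at 10.96 and 11.71 in the 2 animals against 9.90 to 11.87 in the others, and Lcn2, which sequesters bacterial iron carriers, at 13.36 in both against 13.13 to 13.89.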

How the data were processed

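Total RNA of each lung was hybridised to 1 Affymetrix Mouse430_2 array, per the labels' protocols. The deposited values are log2 expression made with GCRMA, per the submitters' processing notes; its version is not given in the sources used here, and the log2 scale was read from the values. GCRMA adjusts background by probe sequence and compresses dim probe sets. Genes were assigned by the platform annotation, and 64 control probe sets were left out. The groups were compared with limma 3.58.1 in R 4.3.3 (lmFit and eBayes, no covariate, Benjamini-Hochberg adjustment over 22495 probe sets). The number of arrays limits the precision. Replicate numbers did not pair the animals: same-numbered animals' deviations correlated at -0.262 to 0.146. Methods were tested on simulated data.

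The genes and lists were chosen with earlier results of these data known. The adipocyte and heart muscle lists, and leaving out control animal 2 and arsenic animal 5, were added after the values were seen. Named genes were all probe sets of the 10 genes and, for each gene, the 3 genes nearest in r. From each list, up to 4 genes with the smallest p were open to naming, and not all of them are described. Among those not described above, Selenbp1 (0.29, limma adjusted p = 0.152), Ttc36 (0.55, 0.163) and Azgp1 (0.60, 0.197) had smaller p-values than Igha, Jchain, Muc1 and Muc4. Foxj1, Lypd2, Cyp2f2, Adipoq, Nppa, Lipe, Pnpla2, Cidec, Ltf, Clca1, Agr2, Slpi, Lcn2, Saa3 and genes under the filter were named after their values were seen. Alternatives were other filters, normalizations, priors, array weights, a replicate block, the ciliated and kidney levels as covariates and leaving out animals.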

Additional observations from a re-analysis of the deposited data

Results flagged for a closer look

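In the 24 groups of 5 values of the 12 airway probe sets, Dixon's criterion set 12 single animals apart; by chance it sets apart about 1 group in 20, and groups of different probe sets share their animals. Control animal 2 was set apart as the lowest control in Scgb3a1 (8.98), Bpifa1 (4.10), both probe sets of Bpifb1 (6.09 and 4.67) and both of Pigr (8.23 and 8.98). Arsenic animal 5 was set apart as the lowest of its group in Scgb3a1 (8.80), Bpifa1 (8.22), Bpifb1 (5.16 with 1423719_at) and Scgb3a2 (15.12). The last of these is a gap of 0.33 near the top of the scale. In Reg3g, Muc5b and Tff2 the same animals were lowest, but the spread of the other 4 was too wide for the criterion. Arsenic animal 3 was set apart as the lowest in Scgb1a1 (16.17), by 0.10, and as the highest in the dim probe set of Muc5ac (1.82), by 0.12.

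In the 30 groups of the marker lists' mean levels, 1 animal was set apart: arsenic animal 3, the highest in most airway genes, had the highest level of the list of IL-17 and acute-phase genes, 8.51. In that animal Saa3, an acute-phase protein gene, was at 9.19, against 6.21 to 6.69 in the other 9.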

How the results depend on the processing

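None of the airway probe sets and none of the list genes passed under any alternative run. The number of probe sets passing over the whole array, 99, was less stable: 19 without a filter on dim probe sets, 54 with 1 probe set per gene, 167 with array weights, 6 with the kidney level as covariate and 12 to 97 with 1 animal left out. It was 0 without arsenic animal 4 and control animal 2 together (limma; 5133 with an unadjusted p under 0.05) and 0 without arsenic animal 5 and control animal 2 together (2801). With the replicate number as a block it was 4, with 0 airway probe sets; the numbers do not pair the animals, and 0 of the 10 correlated best with its own number. Under 23 alternatives the 11 airway probe sets gave 251 log2 differences. Of these, 250 moved by less than the SD between animals, which control animal 2 and arsenic animal 5 widen, and 33 had the other sign; that of Scgb1a1 became 0.05 with median centring. Single omissions moved Scgb3a1 from -1.26 to 1.03, Bpifa1 from -1.31 to 2.15 and Reg3g from -1.37 to 2.07. Over all 10 animals 28 of 36 gene pairs passed, 27 to 28 with 1 animal left out and 17 without arsenic animal 5 and control animal 2. Of 27 comparisons with the ciliated, cartilage and kidney levels 8 passed, 8 with 1 left out, and 0 without those 2 animals. The cause of these changes was not tested. No scanner signal was used, so signal over background is unknown.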
